A study of Mus musculus with 9 samples.

Results

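Kinesins are the motor proteins that walk along microtubules, and the mouse genes examined here are those whose name on the array starts with Kif and a digit or with Klc. There were 34 such genes, carried by 68 probes, and 33 of them had at least 1 probe above background in the DRG channel on at least 4 of the 9 arrays. Those 33 genes, each read from its brightest probe, were compared between injured and uninjured ganglia within a fit over all 20897 genes tested. The genes were chosen by name and by the background flags, and the probes by their brightness over all arrays, and none of the 33 passed through the arrays of 1 group alone. Kif15 lay just inside the limit, with signal above background on 4 arrays, 1 uninjured and 3 injured. Kif2b lay outside it, above background on 0 arrays, and received no test.

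The arrays measured total RNA from L3/L4 dorsal root ganglia (DRG) of adult mice, the clusters of sensory neuron cell bodies whose axons run in the sciatic nerve. The uninjured group held 4 samples. The injured group held 5 samples, taken 3 days after the sciatic nerve had been cut. All 9 samples, injured or not, carried the labels cre.neg and jun.wt. Each sample was labelled with Cy5 and hybridized beside Cy3-labelled universal mouse reference RNA (Stratagene), with no dye swap, and each value below is a log2 ratio of sample over that reference. A value above 0 stands for more signal in DRG than in the reference. An offset of 50 added to both channels before the ratio draws dim probes toward 0, so for these a value near 0 does not stand for equal RNA. The changes of dim probes between groups also depend on the offset. The labels name no animals, and p-values measure only the spread between these samples. The labels and methods state 3 days and the results text of the study 24 hr, and the series text names L4 alone.

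Kinesin motors carry membrane vesicles, mitochondria and protein complexes outward from the cell body along axonal microtubules, which is why they are studied in neurons with long axons. Kinesin-1 is built from heavy chains that move and light chains that bind cargo, kinesin-2 and kinesin-3 motors carry other vesicles, and dynein with its partner dynactin runs the opposite way. A separate set of kinesins works in dividing cells, where its members build the spindle, move chromosomes or complete cytokinesis. Sensory neurons of the adult ganglion do not divide, while glia and blood-derived cells around them can.

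The labels were checked with Atf3 and Sprr1a, genes known to rise in axotomized sensory neurons, which rose by 5.14 and 4.99 on the log2 scale. Median Cy5 signal lay between 149.6 and 178.9 on uninjured and between 108.8 and 191.9 on injured arrays, with injured array 5 the dimmest, and 71.0% to 78.9% of spots were above background. The 9 arrays lay on 3 slides. Slide 1 held 3 uninjured arrays, slide 2 held 1 uninjured and 3 injured arrays, and slide 3 held 2 injured arrays. Of the 10 neuronal markers all were tested and their mean level on an array lay between 5.98 and 6.47 above the reference, and 2 of them fell, Isl1 by 0.49 and Elavl4 by 0.28. Of 6 satellite glia markers 2 rose, Glul by 0.78 and Slc1a3 by 0.22, with a median change of 0.057 over the 6. Over all genes tested, 11.4% were called higher and 14.0% lower. Skeletal muscle markers, 5 of 5 tested, averaged between −0.87 and −0.75 on uninjured and between −0.93 and 2.49 on injured arrays, highest on injured arrays 4 and 2, and none of the 5 passed the test. Macrophage markers averaged between −0.21 and 0.65 on uninjured and between 0.29 and 1.37 on injured arrays, with 1 of 9, Aif1, called higher. The part of muscle, glial or immune cells in the kinesin values was not tested.

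After injury 2 kinesin genes rose and 3 fell, and the other 28 did not pass the test. Kif22 rose 5.44-fold, and every other change was within 0.4 on the log2 scale as processed here. That limit depends on the processing. With an offset of 0, Kif17 changed by −0.68 and Kif9 by −0.42, and with Agilent's ratio by −0.65 and −0.53. With no background correction Kif17 changed by −0.12 and Kif9 by −0.25. Kif4 changed by 0.46 with spots of non-uniform signal kept. In that setting injured array 2 had a slope of 0.813 against the authors' own log2 ratios, and its part in such values was not tested. The genes that passed were Kif22 and Kif4, chromosome-binding motors of mitosis, on the higher side, and Kif16b, Kif17 and Kif9 on the lower side. The 5 called genes are 15.2% of the 33, beside 25.4% (5308) of all genes tested, called by limma's moderated test at a Benjamini-Hochberg adjusted p under 0.05. By direction, 11.4% of all genes were called higher and 14.0% lower. Above 1.5-fold, 1 kinesin gene of 33 remained, beside 5.94% of all genes. In 4 of the 33 genes, Kif22, Kif16b, Kif17 and Kif9, the injured arrays did not overlap the uninjured arrays, which held for 23.9% of all genes. Fewer cells of a type and less RNA per cell cannot be told apart in these whole-ganglion samples.

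**Figure D1:**
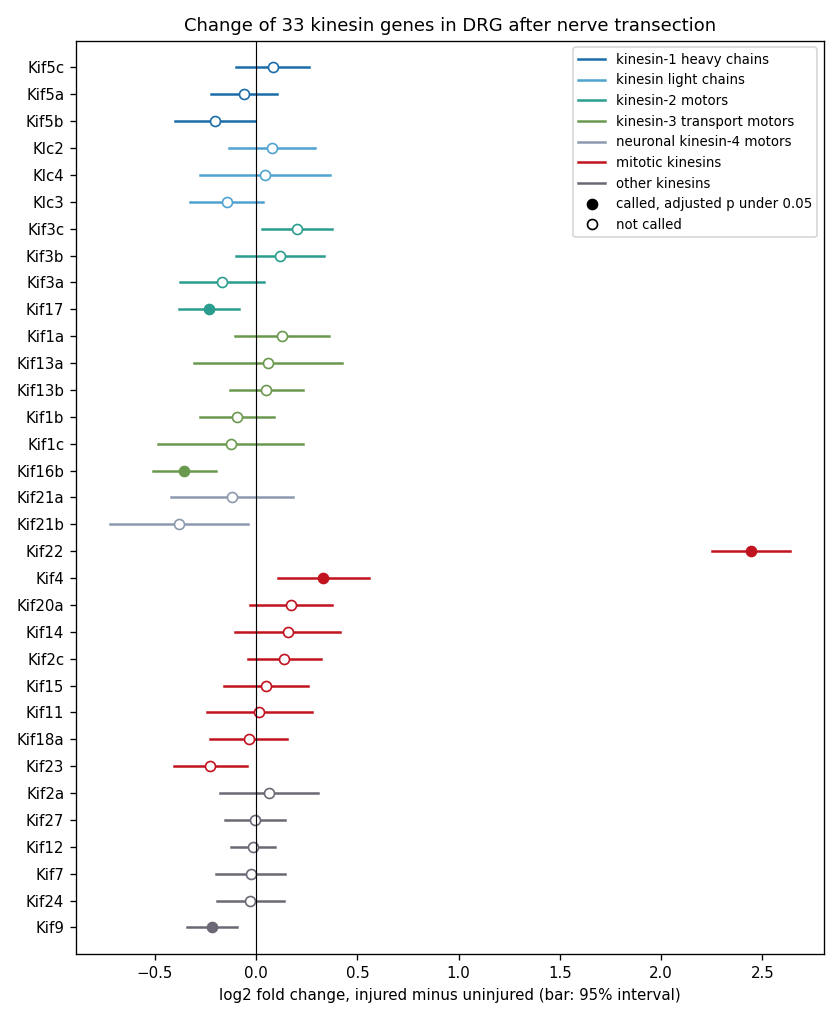
Log2 fold change (injured minus uninjured) of the 33 kinesin genes with 95% intervals, coloured by class, with filled points for genes called at an adjusted p under 0.05. Kif22 stands at 2.44, and the others lie between −0.38 and 0.33.

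Most of the genes counted here as transport kinesins did not pass the test, as was true of most genes tested. The set holds kinesin-1 heavy and light chains, kinesin-2, kinesin-3 transport motors and neuronal kinesin-4 motors. Of its 18 genes, 0 rose and 2 fell in limma's fit, Kif16b and Kif17 (11.1% called lower, beside 14.0% of all genes). The median log2 fold change of the set was −0.077, beside 0.0011 over all genes tested. Changes of the 18 genes ran from −0.38 to 0.20, with 8 genes above 0 and 10 below. Of the 9 mitotic kinesins 2 rose (22.2%, beside 11.4% of all genes) and 0 fell, with a median change of 0.14, or 0.094 without Kif22. Of these 2, Kif4 lost its call in 14 of 24 alternative analyses. With spots of non-uniform signal kept, the setting that gave injured array 2 a slope of 0.813, the mitotic median was 0.33. Of the 6 remaining kinesins 1 fell (16.7%, beside 14.0% of all genes), with a median change of −0.022. The transport median on single injured arrays, taken as the distance from the uninjured mean, ran from −0.15 on array 3 to 0.0023 on array 5, and on uninjured arrays from −0.034 to 0.044. With slide as a fixed block, which leaves only the contrast within slide 2, the transport median was 0.0074, and Kif22 was the only one of the 33 called.

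Relative to the reference RNA, the uninjured mean of every transport kinesin was above that of every mitotic kinesin. All 9 mitotic kinesins were below the reference RNA on every array, with uninjured means from −4.64 to −2.30. Of the 18 transport kinesins 13 were above the reference on every array. The other 5 had means below it, with Klc3 (−1.61) and Kif21b (−1.51) below it on every array, beside −2.30 for Kif14, the highest mitotic mean, and Kif13b, Klc4 and Kif17 between −0.14 and −0.035. Kif5c, at a mean of 6.61, was 97.9 times the reference level, Kif5a 59.2 times, Kif1a, the motor of synaptic vesicle precursors, 25.5 times, and Kif1b, which carries vesicle precursors and mitochondria, 21.2 times. Kif4 and Kif20a stood at the other end, 23.6 and 25.01 times lower than in the reference. Kif22 was 6.71 times lower than the reference in uninjured ganglia and 1.23 times lower in injured ganglia, where the other 8 mitotic kinesins were 4.43 to 22.2 times lower. These ratios are each relative to the amount of the same transcript in the reference and do not rank the genes by abundance.

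**Figure D2:**
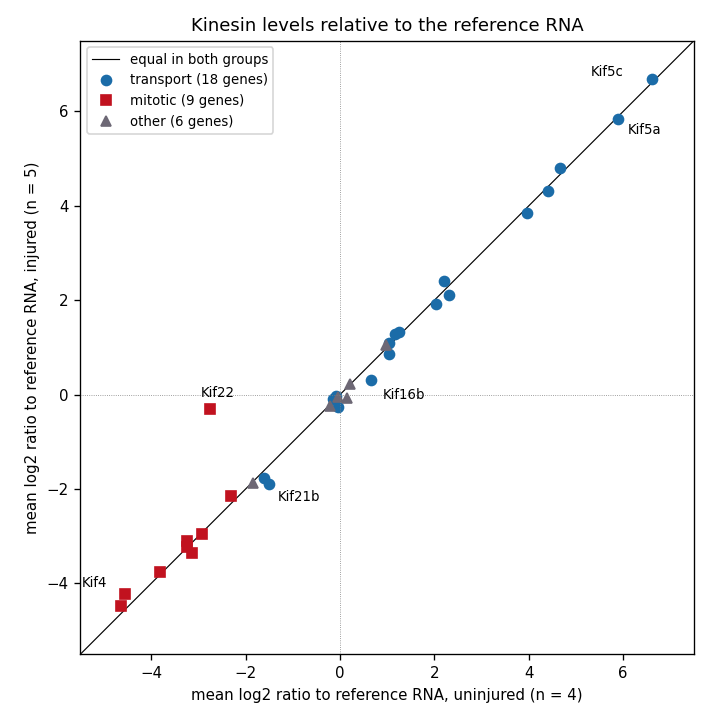
Mean log2 ratio to the reference RNA in injured (vertical) against uninjured (horizontal) ganglia for 18 transport, 9 mitotic and 6 other kinesins, with the line of equal values. Kif22 rises from −2.75 to −0.30 and leaves the line, while Kif5c (6.61 and 6.69) and Kif4 (−4.56 and −4.23) stay close to it.

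Kif22 (NM_145588; probe at chr7:123124337-123124396, minus strand, mm7) encodes a chromokinesin that pushes chromosome arms toward the middle of the spindle. On the 4 uninjured arrays it stood at −2.72, −2.89, −2.85 and −2.52, and on the 5 injured arrays at −0.43, −0.21, −0.40, −0.24 and −0.24. The lowest injured array was above the highest uninjured array, and the injured arrays lay within 0.21 of each other. The mean was −2.75 ± 0.17 (SD, n = 4) before and −0.30 ± 0.10 (SD, n = 5) after injury, a log2 fold change of 2.44 (SE 0.086, 95% interval 2.25 to 2.63, adjusted p = 3.65e-08). An exact permutation test, two-sided over the 126 splits of the arrays, gave p = 0.00794, the smallest that this design allows. Within slide 2 the change was 2.42. By size of rise it was number 28 of the 20897 genes. The gene has 1 probe on the array, so no second probe could be set beside it.

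The change of Kif22 exceeded that of Kif4, the other mitotic motor that passed, by 2.11 on the log2 scale, a difference taken after both values were seen and given no test. The 15 tested markers of dividing cells, such as Mki67 and Top2a, changed by −0.00076 to 0.45, and 2 of them (13.3%, beside 11.4% of all genes) were called higher, Birc5 at 0.36 and Mcm3 at 0.32. Their median change was 0.22, and none rose as far as Kif22. Of the 5 genes examined around Kif22 on chromosome 7, in RefSeq's order, 3 were on the array and 0 of these were called. Over all genes 25.4% were called, and 3 genes are too few to be set against that share. Maz changed by 0.26 (adjusted p = 0.0972 in limma), Zg16 by 0.15 (adjusted p = 0.0844) and Pagr1a by 0.15 (adjusted p = 0.228).

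The promoters of the 3 kinesin genes that changed most among those called are shown so that the sequence before a gene that rose strongly can be set beside those of a gene that rose weakly and a gene that fell. Each is the 250 bases before the RefSeq start on GRCm38.p6, read 5′ to 3′ on the strand of the gene. Capitals mark matches, on either strand, to CCAAT, the CCAAT box, or to TTTGAA, the core of the cell cycle homology region found in promoters of mitotic genes. The windows are chr7:127042421-127042670 on the minus strand for Kif22, chrX:100625815-100626064 on the plus strand for Kif4 and chr2:142901465-142901714 on the minus strand for Kif16b.
Kif22: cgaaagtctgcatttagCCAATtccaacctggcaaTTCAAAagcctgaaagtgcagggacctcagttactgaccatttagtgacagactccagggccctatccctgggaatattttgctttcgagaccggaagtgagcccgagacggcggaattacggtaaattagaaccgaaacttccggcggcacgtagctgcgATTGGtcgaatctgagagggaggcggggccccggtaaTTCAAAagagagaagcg
Kif4: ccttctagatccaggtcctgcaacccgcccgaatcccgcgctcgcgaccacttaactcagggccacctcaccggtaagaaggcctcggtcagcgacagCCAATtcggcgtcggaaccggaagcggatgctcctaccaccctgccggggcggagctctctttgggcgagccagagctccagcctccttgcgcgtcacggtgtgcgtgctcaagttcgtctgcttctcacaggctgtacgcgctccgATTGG
Kif16b: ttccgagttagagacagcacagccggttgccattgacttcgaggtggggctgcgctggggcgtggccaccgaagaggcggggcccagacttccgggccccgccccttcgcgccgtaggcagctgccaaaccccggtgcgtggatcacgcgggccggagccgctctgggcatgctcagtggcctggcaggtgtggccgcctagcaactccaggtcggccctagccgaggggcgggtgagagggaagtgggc

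Kif22 held 2 matches to CCAAT and 2 to TTTGAA, and the nearest TTTGAA match ended 12 bases before the start. Kif4 held 2 matches to CCAAT and 0 to TTTGAA, and Kif16b held neither. Of the 33 genes 27 had a promoter in the RefSeq table, 8 of them mitotic and 13 transport kinesins. TTTGAA was found in 5 of the 8 mitotic (62.5%), 1 of the 13 transport kinesins (7.69%) and 18.3% of all genes in the table. CCAAT was found in 62.5% of the mitotic, 38.5% of the transport and 37.5% of all genes. TGANTCA, the AP-1 element bound by Jun dimers, was in 0 of the 27 kinesin promoters and in 7.82% of all promoters. TGATGCAA, the joint C/EBP-ATF element, was in 0 of 27 and in 0.918% of all. TGACGTCA, the cAMP response element, was in the promoters of Kif5c and Kif17 and in 1.77% of all. The letters describe these windows only.

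**Figure D3:**
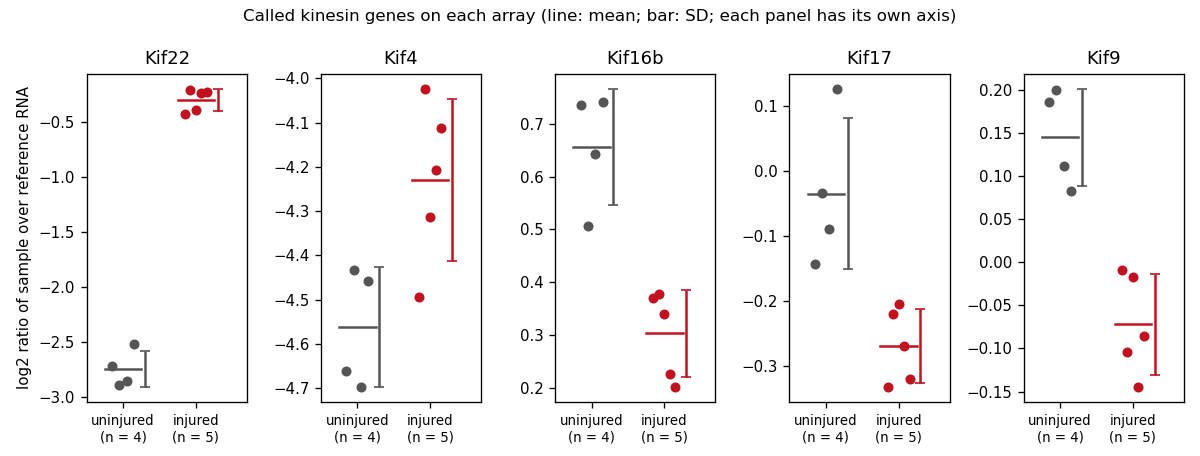
Log2 ratio of sample over reference on each array for the 5 called kinesin genes, with mean lines and SD bars, each panel on its own axis. Kif22 moves by 2.44, the other panels by 0.22 to 0.35, and of the 5 genes Kif4 alone has groups that overlap.

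Kif4 (NM_008446; probe at chrX:96054141-96054201, plus strand, mm7) encodes a chromokinesin of chromosome condensation and the central spindle. On uninjured arrays it stood at −4.66, −4.43, −4.70 and −4.46, and on injured arrays at −4.49, −4.02, −4.31, −4.21 and −4.11. Injured array 1 lay among the uninjured arrays, and the other 4 injured arrays lay above them. Its log2 fold change was 0.33 (SE 0.10, adjusted p = 0.0357; exact permutation p = 0.0317). The second Kif4 probe, which overlaps the first, stood at −3.40, −3.43, −3.48 and −3.36 and at −3.57, −3.21, −3.40, −3.26 and −3.17, and with a change of 0.093 it was not called in a fit of single probes (adjusted p = 0.474), where 23.5% of all probes were. The mean of the dividing-cell markers was highest on injured arrays 2 (−3.61), 5 (−3.68) and 4 (−3.76), the same 3 arrays on which Kif4 was highest, while injured array 1 (−3.98) and array 3 (−3.99) lay in the uninjured range of −4.08 to −3.96. Among the injured arrays, Kif22, Kif20a and Kif2c were also highest on these 3, so the order is not particular to Kif4. Kif14, Kif15, Kif11, Kif18a and Kif23 did not have it. Whether dividing cells had a part in the values of Kif4, Kif22 or the other mitotic kinesins was not tested. The call was lost in 14 of 24 alternative analyses, with the change between 0.21 and 0.46. Among these were the fits without uninjured array 1 or 3 or injured array 2, 4 or 5 (limma adjusted p from 0.0625 to 0.104).

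Among the other mitotic kinesins none was called. Kif20a, a motor of cytokinesis, changed by 0.17, Kif14, also of cytokinesis, by 0.16, and Kif2c, a microtubule depolymerase at the centromere, by 0.14. Kif15, Kif11 and Kif18a, motors of spindle assembly and chromosome alignment, changed by 0.048, 0.015 and −0.038. Kif23, a subunit of the centralspindlin complex, ran the other way. It stood at −3.13, −3.09, −3.22 and −3.10 on uninjured and at −3.55, −3.22, −3.20, −3.35 and −3.46 on injured arrays, a change of −0.23 (limma adjusted p = 0.0659) with injured array 3 inside the uninjured range and array 2 at its lower end. Without injured array 3 it was −0.26 (adjusted p = 0.0396). A second Kif23 probe stood at −2.89, −2.89, −3.14 and −2.97 and at −2.99, −3.09, −3.07, −2.83 and −2.78, a change of 0.020 (adjusted p = 0.903 in the fit of single probes).

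**Figure D4:**
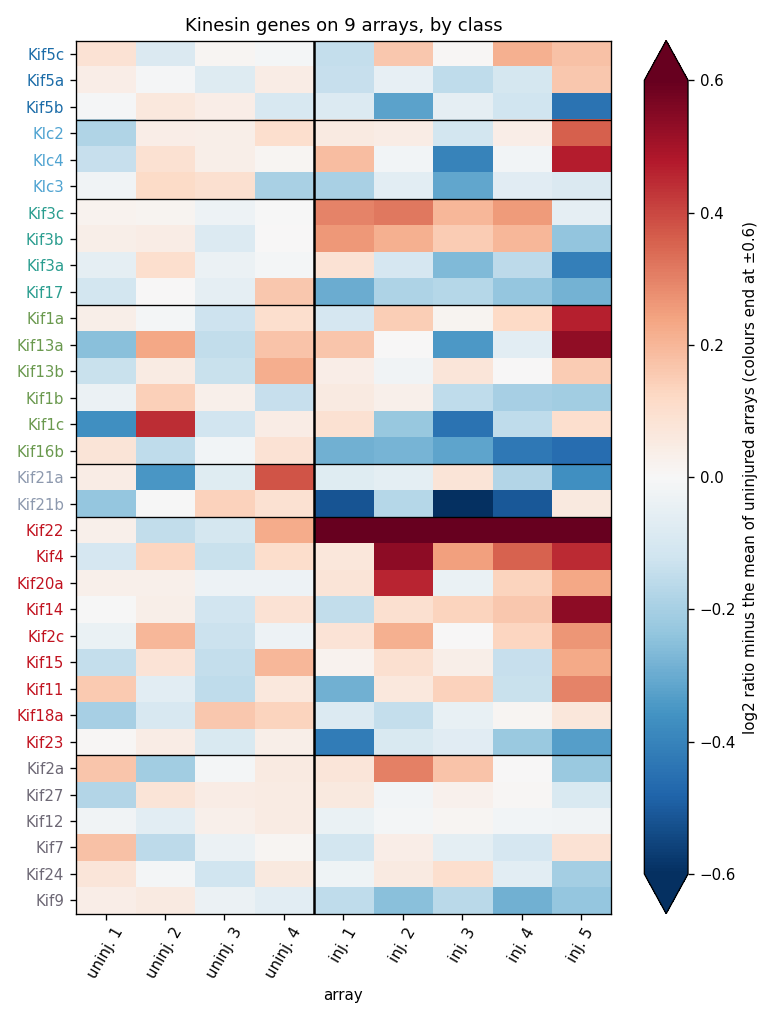
Log2 ratio minus the mean of the uninjured arrays for 33 kinesin genes (in order of class) on 4 uninjured and 5 injured arrays, in colours that end at ±0.6. The Kif22 line is beyond the end of the scale on all 5 injured arrays, and the other lines stay between −0.77 and 0.54.

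The kinesin-1 heavy chains, the main motors of fast axonal transport, showed no change that passed the test. Kif5a, the neuronal form, stood at 5.93, 5.88, 5.81 and 5.93 on uninjured and at 5.75, 5.84, 5.73, 5.78 and 6.05 on injured arrays. Injured array 5 was the highest of all 9, array 2 lay within the uninjured range and arrays 1, 3 and 4 lay below it. The change was −0.058 (95% interval −0.22 to 0.10, adjusted p = 0.618 in limma's fit). Kif5c, the second neuronal form, stood at 6.70, 6.53, 6.62 and 6.60 and at 6.47, 6.77, 6.62, 6.82 and 6.79, with groups that overlapped and a change of 0.082 (95% interval −0.10 to 0.26, adjusted p = 0.515). Kif5b, the form used by most cell types, stood at 2.30, 2.37, 2.35 and 2.21 and at 2.23, 1.99, 2.26, 2.19 and 1.86. Injured arrays 1 and 3 lay within the uninjured range and injured array 5 was lowest. Its change was −0.20 (95% interval −0.40 to −0.0080, adjusted p = 0.122).

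Kinesin light chains, which link the heavy chains to cargo, did not pass the test either. Klc2 changed by 0.076, Klc4 by 0.044 and Klc3 by −0.15. Klc1, listed on the array under the older name Kns2 and therefore outside the name rule, changed by 0.024 (95% interval −0.11 to 0.16), at a mean of 6.53 before and 6.56 after injury. On the brightest probe of each gene, the intervals of the 3 kinesin-1 heavy chains and of Klc1 exclude a rise or fall of 1.5-fold (0.58 on the log2 scale). This limit does not extend to the second probe of Kif5b, which changed by −0.37 (SE 0.17, adjusted p = 0.143 in the fit of single probes). The second probes of Kif5a and Kif5c changed by −0.20 (adjusted p = 0.109) and 0.044 (adjusted p = 0.795) in that fit.

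None of the kinesin-2 subunits Kif3a, Kif3b and Kif3c passed the test. Kif3a and Kif3b pair with each other in the main form of this motor, and Kif3c is a further neuronal subunit. Kif3c stood at 2.22, 2.21, 2.17 and 2.20 on uninjured and at 2.50, 2.51, 2.40, 2.46 and 2.14 on injured arrays. Injured arrays 1 to 4 were above all uninjured arrays and array 5 was below them, and the change of 0.20 did not pass (adjusted p = 0.0847 in limma). Without injured array 5 it was 0.27 (adjusted p = 0.0046). A second Kif3c probe stood at 1.78, 1.76, 1.64 and 1.82 and at 1.69, 1.78, 1.58, 1.59 and 1.55, a change of −0.11 (adjusted p = 0.271 in the fit of single probes), opposite in sign to the first. Kif3b changed by 0.12, or 0.21 without injured array 5 (adjusted p = 0.021). A second Kif3b probe changed by 0.26 and did not pass (adjusted p = 0.104 in the fit of single probes). Kif3a changed by −0.17 (adjusted p = 0.221). Kifap3, the protein that joins kinesin-2 to cargo, changed by 0.13 and was not called.

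Kif17, a kinesin-2 motor of dendrites and cilia, fell by 0.23 (SE 0.067, adjusted p = 0.0257 in limma). It stood at −0.14, −0.034, −0.089 and 0.13 on uninjured and at −0.33, −0.22, −0.21, −0.27 and −0.32 on injured arrays, with no overlap. The probe was dim. It was above background on 3 of 4 uninjured and 3 of 5 injured arrays, with median Cy5 signals of 32.5 and 29.7, and the call was lost in 10 of 23 alternatives, with the change between −0.68 and −0.12. Among these were the fits without uninjured array 2 or 4 or injured array 1 or 4 (limma adjusted p from 0.0519 to 0.0687).

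Of the 6 kinesin-3 transport motors Kif16b alone passed. Kif16b (XM_141392; probe at chr2:142359834-142359893, minus strand, mm7) binds early endosomes. On uninjured arrays it stood at 0.74, 0.51, 0.64 and 0.74, and on injured arrays at 0.37, 0.38, 0.34, 0.23 and 0.20. All injured arrays were below all uninjured arrays, and the change was −0.35 (SE 0.070, 95% interval −0.51 to −0.20, adjusted p = 0.00403; exact permutation p = 0.00794). A second Kif16b probe stood at 0.27, 0.29, 0.32 and 0.19 and at 0.12, 0.24, 0.19, 0.10 and 0.022, lower on average by a change of −0.13 that did not pass (adjusted p = 0.15). The call held in 22 of 24 alternatives and was lost with slide as a fixed block (−0.42, adjusted p = 0.107) and with median centring (−0.43, adjusted p = 0.0617).

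For Kif1c, a motor of dense-core vesicles, the probes disagreed. The brightest stood at 1.67, 2.49, 1.93 and 2.09 on uninjured and at 2.14, 1.82, 1.60, 1.89 and 2.14 on injured arrays, with wide overlap and a change of −0.13 (adjusted p = 0.624 in limma). A dimmer probe stood at −1.80, −1.84, −1.57 and −1.75 and at −1.52, −1.40, −1.48, −1.28 and −1.35. On that probe the injured arrays were all higher than the uninjured arrays, with a change of 0.34 (adjusted p = 0.00852 in the fit of single probes). The remaining probe changed by 0.13 (adjusted p = 0.384), from −0.86, −0.87, −0.99 and −0.95 to −1.13, −0.81, −0.64, −0.67 and −0.69. All 3 lie on chromosome 11 (mm7), the brightest from 70785434 to 70786072, at lower coordinates than the others, which start at 70808060 and 70811708, and it could not be placed on a Kif1c transcript here. The direction of Kif1c therefore rests on the probe that is read.

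Kif1b has probes for a pair of RefSeq transcripts. The brightest, for NM_207682, stood at 4.37, 4.55, 4.44 and 4.27 and at 4.46, 4.44, 4.26, 4.21 and 4.20, a change of −0.10 with groups that overlapped (limma adjusted p = 0.443). The second probe of NM_207682 stood at 3.29, 3.18, 3.29 and 3.51 and at 3.07, 3.28, 3.15, 2.85 and 2.91, a change of −0.27 (adjusted p = 0.0775 in the fit of single probes). The probes of NM_008441 changed the other way without passing, one from 0.39, 0.42, 0.59 and 0.49 to 0.33, 0.94, 0.96, 0.63 and 0.32, a change of 0.16 (adjusted p = 0.447), and the next from 0.21, 0.36, −0.061 and 0.35 to 0.27, 0.40, 0.39, 0.38 and 0.17, a change of 0.11 (adjusted p = 0.459). No test of the difference between the transcripts was made. Kif1a changed by 0.13 (adjusted p = 0.412) and Kif13b, a motor bound to phosphoinositides, by 0.050.

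Kif13a, which carries receptors and endosomes, had the widest range over the injured arrays of the 33 genes, 0.88. It stood at 0.78, 1.26, 0.88 and 1.20 on uninjured and at 1.20, 1.03, 0.68, 0.97 and 1.56 on injured arrays, a change of 0.058 (limma adjusted p = 0.841) with injured array 3 the lowest and array 5 the highest of all. Its other probes changed by −0.067, from −0.039, −0.15, −0.14 and −0.43 to −0.048, −0.017, −0.34, −0.32 and −0.56, and by 0.11, from −0.45, −0.31, −0.40 and −0.49 to −0.26, −0.37, −0.27, −0.32 and −0.30. Neither passed.

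Kif21a and Kif21b, kinesin-4 motors that restrain microtubule growth, changed by −0.12 (adjusted p = 0.576 in limma) and −0.38 (adjusted p = 0.0992). Kif21b had the largest fall of the 33 genes and did not pass. It stood at −1.74, −1.51, −1.37 and −1.42 on uninjured and at −2.03, −1.68, −2.28, −2.02 and −1.45 on injured arrays. Injured arrays 1, 3 and 4 were below all uninjured arrays, and arrays 2 and 5 lay within their range. Within slide 2 the change was 0.023, and without injured array 5 it was −0.49 (adjusted p = 0.0175). The other Kif21b probes changed by −0.079, from −0.39, −0.24, −0.22 and −0.27 to −0.61, −0.44, −0.16, −0.14 and −0.45, and by 0.021, from −1.57, −1.41, −1.52 and −1.47 to −1.71, −1.48, −1.61, −1.51 and −1.07.

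Among the 6 kinesins outside transport and mitosis, Kif9, a motor of motile cilia and sperm flagella, fell by 0.22 (SE 0.056, adjusted p = 0.0162 in limma). It stood at 0.19, 0.20, 0.11 and 0.083 on uninjured and at −0.0095, −0.10, −0.017, −0.15 and −0.086 on injured arrays, with no overlap. Without uninjured array 1 the adjusted p was 0.0541, and over the alternatives the change lay between −0.53 and −0.16. Kif2a, a depolymerase that trims axon branches, changed by 0.065, Kif27 and Kif7, kinesins of cilia and Hedgehog signalling, by −0.0048 and −0.028, Kif24, of centrioles, by −0.028, and Kif12 by −0.015. Both Kif12 and Kif24 had a second probe of opposite sign. For Kif12 the brightest stood at −0.054, −0.10, −0.0047 and 0.016 and at −0.074, −0.045, −0.024, −0.050 and −0.057, and the second, with a change of 0.020, at −0.22, −0.21, −0.090 and −0.13 and at −0.24, −0.056, 0.044, −0.18 and −0.27. For Kif24 the brightest stood at −0.13, −0.21, −0.32 and −0.14 and at −0.23, −0.15, −0.10, −0.27 and −0.41, and the second, with a change of 0.12, at −0.66, −0.95, −0.91 and −0.72 and at −0.82, −0.75, −0.71, −0.48 and −0.70. All 4 of these probes had overlapping groups. Over the 19 genes with more than 1 probe past the filter, 8 had probes that differed in direction and 3, Kif4, Kif16b and Kif1c, probes that differed in call.

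**Figure D5:**
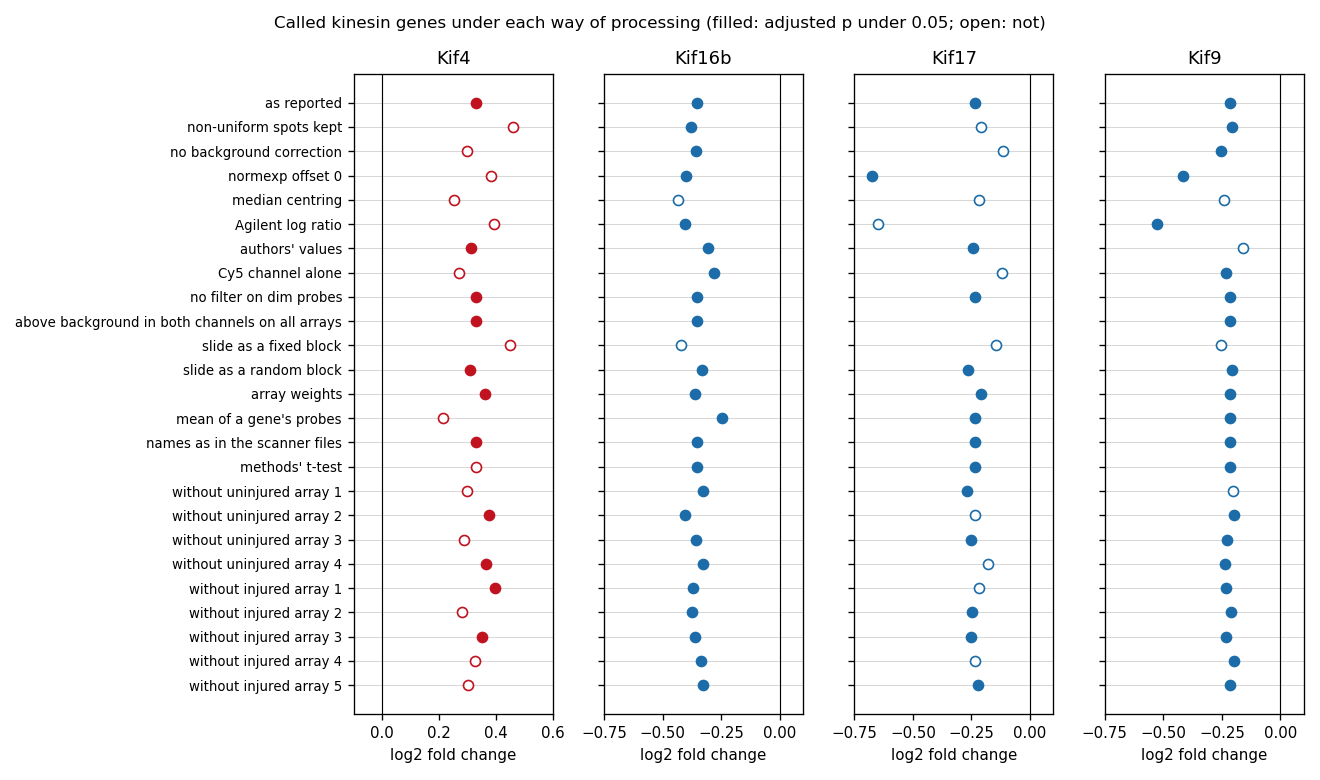
Log2 fold change of Kif4, Kif16b, Kif17 and Kif9 as reported and under each other way of processing or without each array in turn, with filled points where the adjusted p was under 0.05. Kif16b keeps the call in 22 of 24 alternatives and Kif4 loses it in 14 of 24, and none of the 4 genes changes sign.

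The larger falls among kinesins lay outside the name rule. Kif26b, an adhesion-related kinesin listed on the array by clone names, stood at 1.75, 1.505, 1.586 and 1.68 on uninjured and at 1.12, 0.71, 1.01, 0.98 and 0.47 on injured arrays. All injured arrays were below all uninjured arrays, and the change was −0.77 (SE 0.12, adjusted p = 0.00127 in limma). Kifc2, a motor of neurons that moves toward microtubule minus ends, fell by 0.68 (adjusted p = 0.00015). Kif18b and Kif20b, mitotic kinesins also listed by older names, changed by 0.029 and −0.065. Of the 10 tested genes outside the rule (Kif26b, Kif18b, Kif20b, Klc1 and a list of 6, namely Kifc2, Kifc3, Kifc5b, Cenpe, Stard9 and the partner protein Kifap3), 2 fell, Kif26b and Kifc2, and 0 rose. Over all genes tested, 14.0% were called lower and 11.4% higher.

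For comparison with the inward motor, 24 dynein and dynactin genes were tested, of which 3 rose and 2 fell (20.8% called, beside 25.4% of all genes), with a median of 0.012. Ndel1, a dynein regulator, rose by 0.69, the light chain Dynlt1b by 0.59 and the cargo adaptor Bicd2 by 0.36. The light chain Dynlt3 fell by 0.25 and the dynactin subunit Dctn5 by 0.17. Of the 18 kinesin cargo adaptors 3 rose and 3 fell (33.3% called, beside 25.4% of all genes), with a median of −0.047. Ktn1, kinectin, rose by 0.60, Madd, which links Kif1a and Kif1b to vesicles, by 0.28 and Arl8a, a lysosomal GTPase, by 0.28. Trak1, the mitochondrial adaptor, fell by 0.29, Sybu, syntabulin, by 0.25 and Spag9, a JNK scaffold, by 0.21. Each of these 11 genes passed limma's test at an adjusted p under 0.05.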

How the data were processed

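RNA from 4 uninjured and 5 injured L3/L4 DRG samples was hybridized to 9 two-channel Agilent arrays. As deposited, the scanner files hold intensities of spots (mean) and of their local background (median) in both channels. They also hold log10 ratios, per the file headers from Agilent Feature Extraction 10.5.1.1, whose background model and dye normalization they carry. A further deposited table holds the authors' own log2 ratios (Cy5 over Cy3, normalized within arrays), a unit found by setting it against the scanner values (slopes from 1.005 to 1.014). Agilent ratios and the authors' values served as alternatives.

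Values were computed in R 4.3.3 with limma 3.58.1. Spots with a non-uniform feature or local background were left out on that array, since with them injured array 2 had a slope of 0.813 against the authors' values. Normexp background correction (offset 50), loess within arrays, and averaging of repeated spots followed. Probes needed a Cy5 signal above background on 4 or more arrays, and the brightest stood for its gene. Groups were compared with lmFit and eBayes, with Benjamini-Hochberg adjustment over 20897 genes, single genes also by two-sided exact permutation. The number of arrays limits the precision. Tested on simulated data for this comparison (20897 genes, 200 changed), the procedure found 93% of changes of 1 and 70% of changes of 0.5 on the log2 scale. Unchanged genes made up 4.68% of its calls. The simulated noise was independent between genes and arrays and held no slide effect. With 200 genes changed there and 5308 called in the data, the adjustment set a stricter limit on p in the simulation. The shares recovered therefore do not carry over to these data. Recovery of changes below 0.5, such as those of Kif4, Kif16b, Kif17 and Kif9, was not tested. Symbols came from the arrays' own annotation or RefSeq, and probe coordinates are on mm7 as in the files. Promoter sequences are from RefSeq (GRCm38.p6). Python 3.11.15 with matplotlib 3.10.9 drew the plots.

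The kinesin genes and all lists were chosen with earlier results of these data known. All 33 genes may be named. Values on every array are given for called genes with a change of at least 0.3, for kinesin-1 heavy chains and where probes disagreed, and from other lists the largest rises and falls among called genes, up to 3 each for dynein and for adaptors. Array values of Kif17, Kif9 and Kif26b were given after they were seen. Alternatives were non-uniform spots kept, no background correction, an offset of 0, median centring, Agilent's ratio, the authors' values, Cy5 alone, other filters and probe rules, names as in the files, slide as a block, array weights, a 1.5-fold limit, Student's test, and leaving out each array. Other experiments of the study were not used here.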

Additional observations from a re-analysis of the deposited data

Results flagged for a closer look

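On injured array 5, Kif3b, a kinesin-2 subunit, stood at 0.92, while the other 4 injured arrays lay between 1.31 and 1.42. On uninjured array 1, Kif27, a ciliary kinesin, stood at 0.048, while the other 3 uninjured arrays lay between 0.27 and 0.30. Both lay far from the rest of their group relative to its whole range, by Dixon's limits for groups of 4 and 5 arrays. Of the 66 groups of arrays examined (33 genes in 2 groups), 2 passed such a limit, where chance gives about 1 in 20. Injured array 5 had the lowest median Cy5 signal of the 9, and its part in the Kif3b value was not tested.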

How the results depend on the processing

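No paired analysis was possible because replicate numbers are absent from the labels and no injured sample is tied there to an uninjured one (array numbers follow the order of the samples only). Whether both groups came from the same animals is not given for these arrays, though for other assays of the study the controls were ganglia of the opposite side. Kif22 kept its direction and its call in all 24 alternatives, with a log2 fold change from 2.24 to 2.52 and adjusted p up to 0.00025. The signs of the other called genes, Kif4, Kif16b, Kif17 and Kif9, were also the same in every alternative that gave them a value, while the calls of Kif4 (14 alternatives), Kif17 (10), Kif9 (4) and Kif16b (2) were lost in some. These counts, and the 24 alternatives, leave out the 1.5-fold limit, under which Kif22 alone stayed called. Of 789 gene values, 690 kept sign and side of the threshold, 57 changed sign, 30 lost and 12 gained a call; no gene that was called changed sign. The cause was not tested.

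The count of kinesin genes called higher was 1 in place of 2 with non-uniform spots kept, no background correction, an offset of 0, median centring, Agilent's ratio, Cy5 alone, slide as a fixed block, the mean of a gene's probes, the methods' t-test (4 kinesin genes in all after Benjamini-Hochberg adjustment, 7 before it, and 4706 and 7332 of all genes) and a 1.5-fold limit, and Kif22 was the gene. Leaving out single arrays gave 1 to 3 called higher and 2 to 4 lower. It was 1 higher without uninjured array 1 or 3 or injured array 2 or 4, where Kif4 was lost, and 3 higher without injured array 5, where Kif3b and Kif3c passed. The count called lower was 0 with slide as a fixed block and with the 1.5-fold limit, 1 (Kif21b) with median centring, and 6 with slide as a random block, whose fitted correlation within slides was negative (−0.21). The median of the transport kinesins was −0.19 with median centring, 0.0074 with slide as a fixed block, 0.0055 with the mean of a gene's probes, and −0.085 to −0.013 without single arrays, nearest to 0 without uninjured array 2. The median of the mitotic kinesins was 0.33 with non-uniform spots kept, where injured array 2 had a slope of 0.813 against the authors' values. Over all genes, 2659 were called with median centring (980 higher, 1679 lower, median change of all genes −0.049), 1179 with slide as a fixed block (629 and 550) and 1242 above 1.5-fold (701 and 541), against 5308 (2389 and 2919). For slide as a random block and for single arrays left out, no count over all genes is set beside the kinesin counts. Whether the kinesins moved apart from the whole table in those fits is not shown.

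Sign changes concerned genes that were not called. They were Kif13a (−0.021), Kif18a (0.25) and Kif7 (0.090) with non-uniform spots kept, Kif11 (−0.034), Kif12 (0.059) and Kif15 (−0.053) with no background correction, Kif11 (−0.11) and Kif27 (0.0053) with an offset of 0, and Kif11 (−0.043), Kif12 (0.015), Kif15 (−0.011), Kif2a (−0.024), Kif5c (−0.023) and Klc4 (−0.046) with median centring. With Agilent's ratio they were Kif11 (−0.28), Kif12 (0.18) and Kif15 (−0.073), with the authors' values Kif11 (−0.032), and with Cy5 alone Kif11 (−0.11), Kif12 (0.040), Kif2c (−0.0035) and Kif5c (−0.028). With slide as a fixed block they were Kif11 (−0.13), Kif18a (0.15), Kif1c (0.36), Kif21b (0.023), Kif27 (0.16), Kif2a (−0.12) and Kif5c (−0.023), and with slide as a random block Kif7 (0.024). Array weights turned Kif11 (−0.029), Kif24 (0.0045), Kif27 (0.024) and Klc4 (−0.0066), and the mean of a gene's probes Kif12 (0.0023), Kif1c (0.11) and Kif24 (0.045). Without single arrays the ranges that crossed 0 were those of Kif11 (−0.055 to 0.091), Kif12 (−0.036 to 0.0015), Kif13a (−0.061 to 0.16), Kif18a (−0.10 to 0.016), Kif1c (−0.25 to 0.023), Kif21a (−0.24 to 0.0070), Kif24 (−0.068 to 0.016), Kif27 (−0.063 to 0.021), Kif2a (−0.0046 to 0.14), Kif7 (−0.080 to 0.032) and Klc4 (−0.063 to 0.15).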
